A study of Mus musculus with 2 samples.

Results

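The choroid plexus epithelial genes described here are 36 genes that mark the secretory epithelium of the choroid plexus or that were far higher in 1 of the 2 libraries of this series. They were taken by symbol out of 55536 annotated genes, and each matched 1 gene record. Together the 36 genes have 155 annotated transcripts. The list was drawn up with the difference between the libraries in view, so the direction and size of that difference are given as a description, with no test. The choice carried no numeric threshold.

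The choroid plexus is a tuft of vascular tissue inside the brain ventricles, and its epithelium secretes the cerebrospinal fluid. The epithelial cells are joined by tight junctions, move sodium, chloride, bicarbonate and water from blood to ventricle, and release carrier proteins, of which transthyretin is the most abundant. The plexus of the lateral ventricle lies against the hippocampus along the choroid fissure, although it is no part of the hippocampal tissue itself.

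The libraries come from polyadenylated RNA of the adult mouse hippocampus at 6 months, from C57BL/6 animals of strain B6NCrl with no stated treatment or engineered allele. The sample descriptions call the animals male, while the field for sex reads as not collected. There is 1 group of 2 libraries, labelled biological replicates 1 and 2, each made from 20 ng of RNA by Nextera tagmentation. The libraries have separate tissue sample identifiers and share 1 donor identifier, and nothing in the labels tells if they came from separate animals. The series has no second condition, so every comparison below sets 1 library beside the other.

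The gene tables held 38921626 reads in replicate 1 and 39499391 in replicate 2, as estimated counts of reads per gene. All 10 listed markers of hippocampal glutamatergic neurons were present in both libraries, with a summed level of 2401 and 2798 TPM (TPM is a share of all transcripts, scaled for transcript length and depth). The 11 defining plexus markers, from Ttr to Tmem72, stood between 1.78 and 14956 TPM in replicate 1. In replicate 2 they stood between 0.01 and 117 TPM, and Kcne2 and Aqp1 were down to 1 read. Tmem72 was also low there, with 6 reads, while Ttr and Enpp2 still stood at 117 and 96.5 TPM. The list was drawn up with this difference in view, so these levels describe the gene set and do not test its label.

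All 36 genes were higher in replicate 1. The ratio was computed from read counts after scaling of the library sizes, and 35 of the 36 genes reached a log2 ratio of 1, a 2-fold difference. Among the 14080 genes with a mean count of at least 50, 278 genes or 1.97% were higher in replicate 1 by that much, 0.433% were lower by that much, and 2.41% differed in either direction. Since the genes were chosen from this difference, nothing is read from their count beside the background. Their median log2 ratio was 3.62, against -0.0052 over the 14080 genes. A log2 ratio of 2 was reached by 30 of them, against 0.511% of those genes. A log2 ratio of 5 was reached by 21 of the 14080 genes, of which 11 were members and 10 were not. In bulk tissue, fewer cells of a type and less RNA per cell cannot be told apart, so these ratios do not separate a smaller piece of plexus from a less active one.

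**Figure D1:**
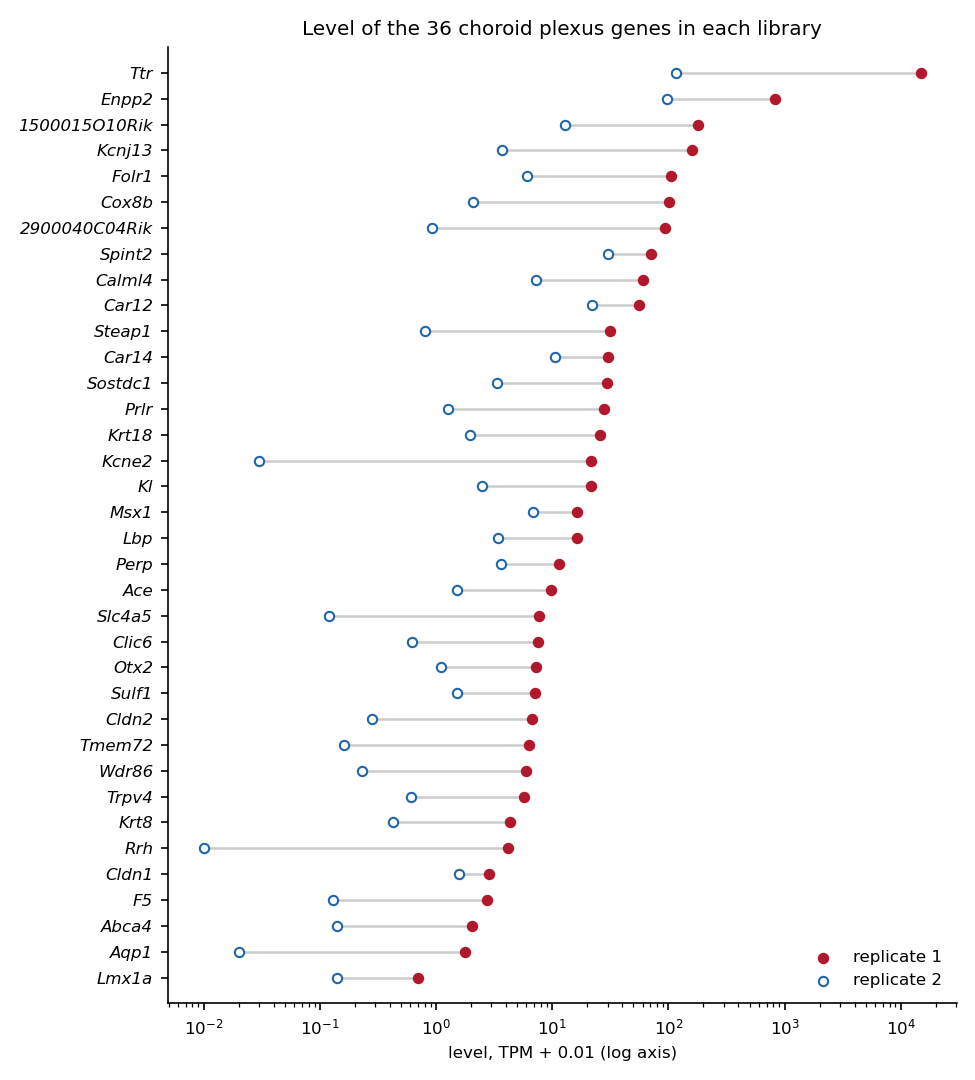
Level of each of the 36 genes in replicate 1 (filled red points) and replicate 2 (open blue points), in TPM plus 0.01 on a log axis, ordered by the level in replicate 1; grey lines join the 2 libraries. Every filled point lies to the right of its open point, from Ttr at 14956 and 117 TPM down to Lmx1a at 0.69 and 0.13 TPM.

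The 36 genes summed to 16919 TPM in replicate 1, or 1.69% of all TPM, and to 341 TPM in replicate 2, or 0.0341%. Ttr alone made up 88.4% of the first sum and 34.2% of the second. Without Ttr, the other genes summed to 1963 TPM and 224 TPM. The sum was therefore carried by Ttr in replicate 1 and spread over more genes in replicate 2, where Enpp2 made up 28.3% of it. At least 1 TPM was reached by 35 of the 36 genes in replicate 1 and by 21 in replicate 2, and at least 10 TPM by 20 and by 6.

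Carriers and secreted proteins formed the most abundant group. Ttr, a carrier of thyroid hormone, had 14956 TPM from 471673 reads in replicate 1, and 117 TPM from 3782 reads in replicate 2. It ranked 4 of all genes by TPM in the first library and 1244 in the second. The ratio was 125-fold, with a 95% interval of 121 to 129 that covers counting error only, as do all intervals given here. Enpp2 encodes autotaxin, the secreted enzyme that makes lysophosphatidic acid and is also a known product of oligodendrocytes. It stood at 823 and 96.5 TPM from 72096 and 8290 reads, a ratio of 8.74. Enpp2 was thus the second most abundant plexus gene in both libraries, and in replicate 2 it lay close to Ttr.

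Folr1, the folate receptor through which the plexus carries folate into the fluid, had 105 TPM in replicate 1 and 6.04 TPM in replicate 2, a 21.7-fold ratio. Kl, which encodes the FGF23 co-receptor Klotho and is shed into the fluid, had 21.4 and 2.5 TPM, a ratio of 8.43. Sostdc1, a secreted antagonist of BMP and Wnt signals, had 29.8 and 3.34 TPM, a ratio of 8.76. Klotho and Sostdc1 therefore kept nearly the same proportion as Enpp2 between the libraries, while the ratio of Folr1 lay between those of Enpp2 and Ttr. F5, coagulation factor V, had 607 reads in replicate 1 and 27 in replicate 2, a 22.6-fold ratio. Ace, the angiotensin-converting enzyme, had 1392 and 218 reads, a ratio of 6.42. Lbp, the lipopolysaccharide-binding protein, had 999 and 186 reads, a ratio of 5.40. The smallest ratio of the group was that of Sulf1, an extracellular enzyme that trims sulfate groups from heparan sulfate, at 4.40 from 1029 and 235 reads. The 9 genes of this group had a median log2 ratio of 3.13.

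Genes of ion and water transport spanned the widest range of ratios. Kcne2, an accessory subunit of potassium channels, had 1019 reads against a lone read, or 21.7 and 0.02 TPM. The ratio was 1024-fold, with an interval of 183 to 40495 for that reason. Aqp1, the water channel of the apical membrane, had 134 reads and 1 read, a ratio of 135 with an interval of 23.8 to 5359. These genes were close to absent from replicate 2, where a count of 0 would still allow 3 reads, or 0.0763 CPM, the scaled count used for the ratios. Slc4a5, a sodium bicarbonate cotransporter, had 875 and 10 reads, an 88.0-fold ratio with an interval of 47.6 to 184. Kcnj13, the inward rectifier Kir7.1, had 5416 and 128 reads, or 159 and 3.65 TPM, a 42.5-fold ratio. Steap1, of the metalloreductase family, had 1027 and 27 reads, a 38.2-fold ratio.

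The other transport genes had at least 57 reads in both libraries. Clic6, a chloride intracellular channel protein, had 7.47 and 0.61 TPM, a ratio of 11.96. Trpv4, a cation channel that senses osmolarity, had 5.69 and 0.6 TPM, a ratio of 9.38. The membrane-bound carbonic anhydrases, which help to supply bicarbonate and protons, were nearest to equal. Car12 had 55.5 and 22.1 TPM, a ratio of 2.90, and Car14 had 29.9 and 10.5 TPM, a ratio of 2.96. With 1243 and 446 reads in replicate 2, the carbonic anhydrases were among the best covered members there.

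The receptor and membrane protein group held 4 genes, each more than 10-fold higher in replicate 1 by the first program. Prlr, the prolactin receptor, had 27.9 TPM in replicate 1 and 1.25 TPM in replicate 2, from 2167 and 150 reads, a 14.5-fold ratio. Tmem72, a multispan membrane protein, had 618 and 6 reads, a 104-fold ratio with an interval of 47.3 to 283. The second program gave Tmem72 1046 and 28 reads, a log2 ratio of 5.19, and in TPM of the first program the ratio was 41.7, both under that interval. Rrh, the opsin known as peropsin, had 140 reads and none. With replicate 2 set at the floor of 3 reads the ratio was 46.9, and the counting interval starts lower, at 37.6-fold. The second program assigned Rrh 205 and 13 reads, a log2 ratio of 3.92, and there all of its replicate 2 TPM went to a transcript with a retained intron, Rrh-203. Rrh was therefore not at 0 under both programs. Abca4, a retinoid transporter best known from photoreceptors, had 358 and 13 reads, a 27.7-fold ratio.

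The 3 transcription factors differed less. Otx2, which is required for the plexus to form and persists in its epithelium, had 328 reads and 44 reads, or 7.25 and 1.1 TPM, a ratio of 7.49. Msx1, a homeobox factor of the dorsal midline, had 894 and 379 reads, or 16.4 and 6.81 TPM, a ratio of 2.37. Lmx1a, a roof plate factor, was the lowest member with 66 and 12 reads, a ratio of 5.53 with an interval of 2.96 to 11.2, and was the only member with a mean count under 50. Msx1 was thus the most abundant factor of the 3 in either library and the nearest to equal.

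Among the epithelial junction and keratin genes, Cldn1 was the only member under a 2-fold ratio. Cldn1, a tight junction claudin, had 266 and 152 reads, or 2.82 and 1.58 TPM, a ratio of 1.76 with an interval of 1.44 to 2.16. Cldn2, the claudin that forms pores for cations and water in leaky epithelia, had 547 and 24 reads, a ratio of 22.9. The claudins thus differed from each other by more than their counting intervals, since that of Cldn2 was 15.2 to 36.1. Krt8 and Krt18, the paired keratins of simple epithelia, had ratios of 10.01 and 12.7 from 239 and 24 reads and from 1001 and 79 reads. Perp, a desmosomal membrane protein, had 11.5 and 3.58 TPM, a ratio of 3.15. Spint2, an inhibitor of membrane serine proteases, had 71.0 and 30.2 TPM, a ratio of 2.29.

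Of the remaining genes, 1500015O10Rik, also known as Ecrg4 and encoding the secreted peptide precursor augurin, had 181 and 12.95 TPM, a ratio of 13.6. The long noncoding RNA 2900040C04Rik had 879 and 9 reads, or 93.6 and 0.91 TPM, a 98.2-fold ratio. It was the noncoding member of the list and lay closer to Ttr in ratio than most of the coding genes did. Cox8b, a subunit form of cytochrome c oxidase, had 644 and 14 reads, a 46.2-fold ratio. Wdr86, a WD repeat protein, had 364 and 10 reads, a 36.6-fold ratio. Calml4, a calmodulin-like protein of microvilli, had 1164 and 143 reads, a ratio of 8.18.

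**Figure D2:**
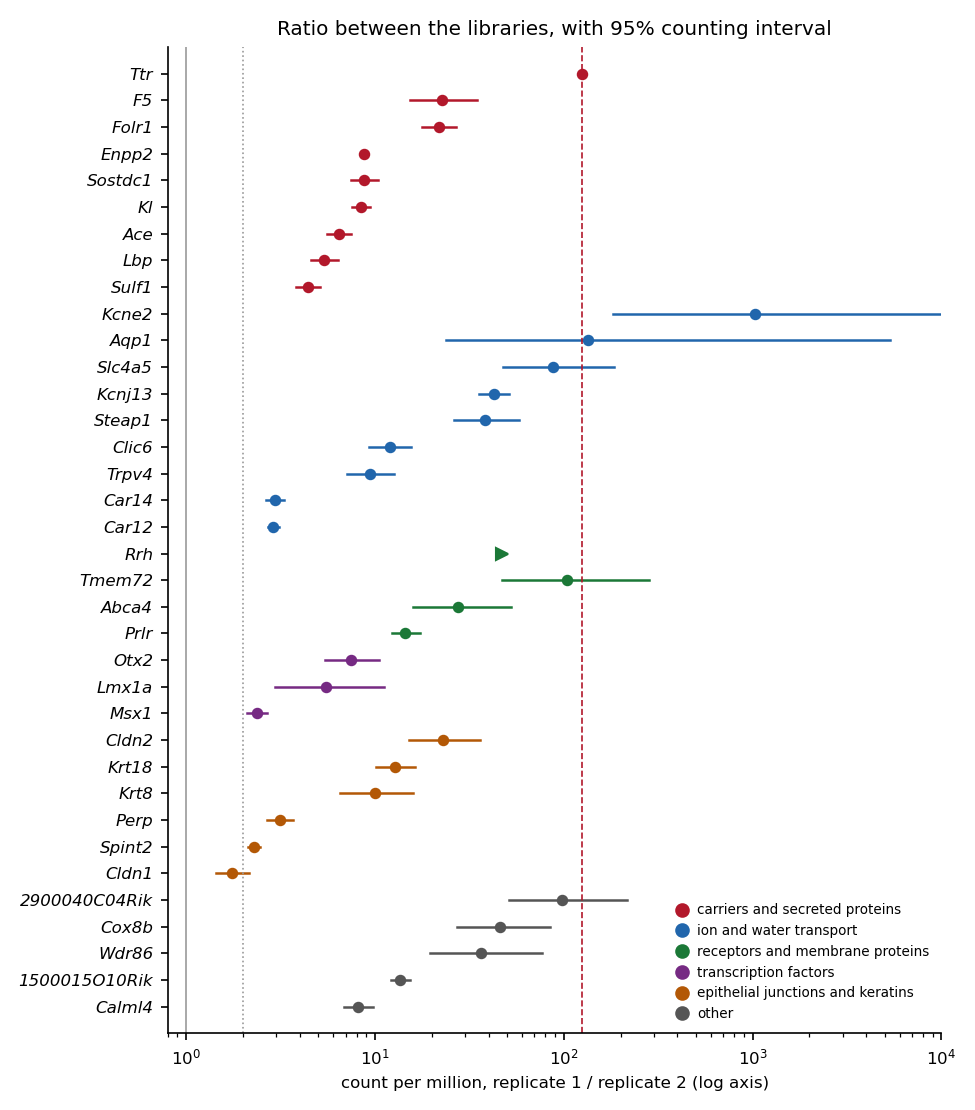
Ratio of replicate 1 to replicate 2 in scaled counts (CPM) for each gene (points, coloured by role), with its 95% counting interval (lines), on a log axis; the grey lines mark ratios of 1 and 2, and the dashed red line the ratio of Ttr. The triangle for Rrh is its ratio of 46.9 with replicate 2 set at 3 reads, and its counting interval, not drawn, starts at 37.6. The line for Kcne2 runs past the axis to 40495, and Cldn1 at 1.76 is the only point left of the dotted line.

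The ratio of each gene was then set beside that of Ttr, to separate genes that tracked the most abundant plexus transcript from genes that kept a larger share of their level in replicate 2. Besides Ttr, 4 genes lay within a log2 difference of 1 from it: Aqp1, Tmem72, 2900040C04Rik and Slc4a5. In the second program Aqp1 and Tmem72 lay farther below, with log2 ratios of 5.66 and 5.19 against 6.997 for Ttr. By the first program 7 genes were no more than 1 below Ttr, counting Ttr itself, Kcne2 and, by its log2 ratio alone, Rrh. By the second program there were 4: Ttr, Kcne2, 2900040C04Rik and Slc4a5. Kcne2 lay more than 1 above, and its interval was the only one wholly above the Ttr ratio. Rrh, with no read in replicate 2, could not be placed, as its bound is a log2 ratio of 5.55 against 6.97 for Ttr. These genes, Rrh included, had 10 or fewer reads each in replicate 2, apart from Ttr itself.

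A group of 8 genes lay 1 to 3 log2 units below Ttr: Kcnj13, Cox8b, Steap1, Wdr86, Abca4, Cldn2, F5 and Folr1. The largest group, with 21 genes, lay more than 3 below. It held the 3 transcription factors, both carbonic anhydrases, both keratins, Enpp2, Kl, Sostdc1, Prlr, Clic6, Trpv4, 1500015O10Rik, Calml4, Ace, Lbp, Sulf1, Perp, Spint2 and Cldn1. In all, the counting interval lay wholly below the Ttr ratio for 29 genes and held it for 5, among them Rrh. Most of the list was therefore not in a fixed proportion to Ttr across the libraries.

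Had each gene kept its replicate 1 proportion to Ttr, its TPM in replicate 2 would have been its replicate 1 TPM divided by 128, the Ttr ratio in TPM. For Enpp2, 90.1 of the 96.5 TPM in replicate 2 lay above that level. For Spint2 the remainder was 29.7 of 30.2 TPM, for Car12 21.7 of 22.1 TPM, and for Car14 10.3 of 10.5 TPM. Over 90% of the replicate 2 level lay above the Ttr proportion for 18 genes. For Kcnj13 the remainder was 2.41 of 3.65 TPM and for 2900040C04Rik 0.18 of 0.91 TPM. Which cells held this remainder was not tested. The split also rests on the reference: with the median log2 ratio of the 5 most-read members other than Ttr in its place, 30 genes in place of 7 were no more than 1 below the reference.

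**Figure D3:**
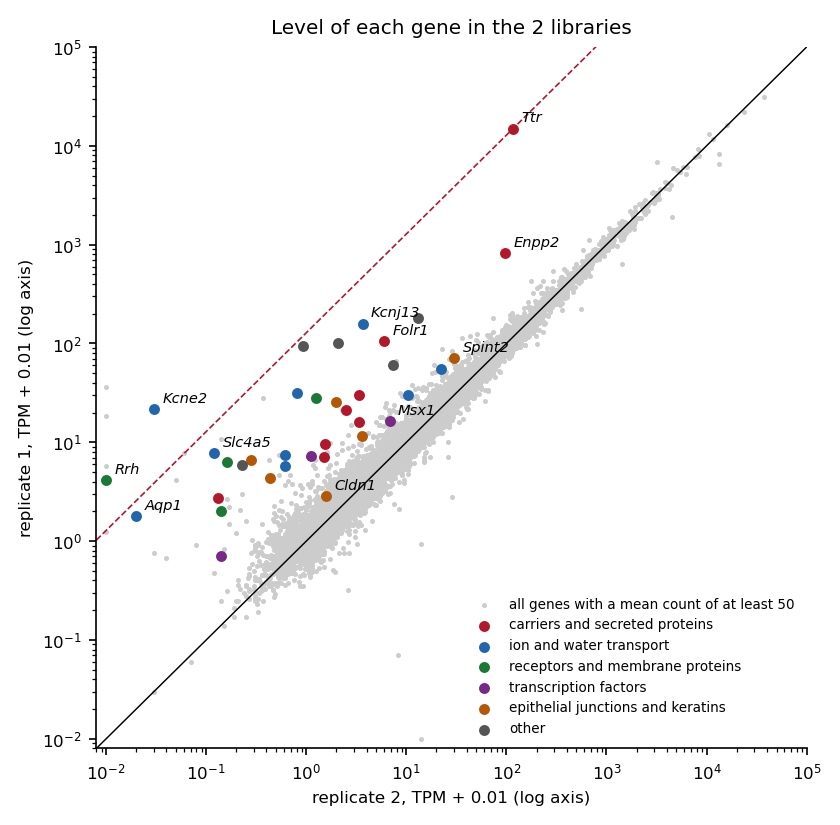
Level of each gene in replicate 2 (horizontal axis) and replicate 1 (vertical axis), in TPM plus 0.01 on log axes; grey points are the 14080 genes with a mean count of at least 50, coloured points the 36 members by role, the black line equality and the dashed red line the Ttr ratio of 128 in TPM. Most grey points follow the black line, Ttr, Aqp1 and Slc4a5 lie near the dashed line, and Spint2, Msx1 and Cldn1 lie beside the edge of the grey points.

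Transcript shares within a gene were no part of how the genes were chosen. Of the 36 genes, 26 have 2 or more annotated transcripts. Shares are percentages of the gene's TPM in a library, from 2 quantification programs run on the same reads. Of 19 genes with at least 20 reads in both libraries, 17 had the same dominant transcript in both by the first program. Kcnj13, Clic6, Steap1 and Cldn1 gave 100% to 1 transcript throughout. For Otx2 and Prlr the dominant transcript differed by the first program. By the second program 18 of 21 genes had the same one, and Prlr, Sulf1 and Abca4 differed while Otx2 did not. With no count over all genes beside these, nothing particular to the members is read from them. A rule chosen after the values were seen took genes with at least 100 reads in both libraries in which a transcript differed by at least 5 percentage points in the same direction under both programs. It was met by 9 of 13 genes: Prlr, Enpp2, Calml4, Ace, Sulf1, Lbp, Spint2, Car12 and Car14. Among all 11151 genes that met the same conditions on transcripts and reads, 38.0% met the rule, and among those with under 400 reads in the lower library 54.0% did, against 5 of 9 members in that range. With 400 or more reads it was 32.6% of all genes and 4 of 4 members. Such shifts were thus common between these libraries, and nothing particular to the members is read from their count. Each share is from 1 library on each side, so the shifts are descriptions with no estimate of biological spread.

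Enpp2 showed a coding difference between its forms. The autotaxin form of 887 amino acids holds a 75-base exon (exon 20 of 26 of Enpp2-202, chr15:54851348-54851422, mm10, minus strand) that the main form of 862 amino acids lacks. A further form of 910 amino acids holds a 156-base exon instead (exon 12 of 26 of Enpp2-204, chr15:54877776-54877931, minus strand). Its coding sequence has 2730 bases against 2586 in the main form. That is less than the whole exon would add, so these forms also differ elsewhere in the coding sequence. Both exons are multiples of 3 bases. They are shown because their forms moved differently between the libraries, with the exon in capitals and 15 bases of the neighbouring exons in lower case, from the GENCODE M21 transcripts:

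Enpp2 75-base exon: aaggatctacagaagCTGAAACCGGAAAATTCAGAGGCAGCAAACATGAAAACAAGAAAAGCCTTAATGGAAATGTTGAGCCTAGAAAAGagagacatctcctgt

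Enpp2 156-base exon: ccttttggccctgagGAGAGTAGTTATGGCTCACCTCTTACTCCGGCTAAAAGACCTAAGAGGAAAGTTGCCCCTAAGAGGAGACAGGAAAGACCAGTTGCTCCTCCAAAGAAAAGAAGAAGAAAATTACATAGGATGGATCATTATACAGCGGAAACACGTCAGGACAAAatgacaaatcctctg

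The form with the 75-base exon had 1430 assigned reads in replicate 1 and 797 in replicate 2, a log2 ratio of 0.85. The main form had 63313 and 6526 reads, a log2 ratio of 3.29. The form with the 156-base exon had 3231 and 217 reads, a log2 ratio of 3.90. Among the complete coding transcripts, the 75-base exon form thus made up 2.45% in replicate 1 and 12.1% in replicate 2, and by the second program 2.74% and 14.3%. The 156-base exon form went the other way, from 5.08% in replicate 1 to 3.03% in replicate 2, and by the second program from 10.4% to 6.43%. The 10 oligodendrocyte markers summed to 3899 and 4238 TPM, and the part of these cells in the Enpp2 shares was not tested.

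Car12 also differed by an exon. The form of 354 amino acids holds a 30-base exon (exon 9 of 11 of Car12-201, chr9:66762403-66762432, mm10, plus strand) that the form of 344 amino acids lacks. It is shown, in capitals between neighbouring bases, because this form followed the plexus genes more closely than the other did:

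Car12 30-base exon: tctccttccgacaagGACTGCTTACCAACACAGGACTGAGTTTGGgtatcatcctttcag

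The 354 amino acid form had 1568 reads in replicate 1 and 119 in replicate 2, a log2 ratio of 3.72. The 344 amino acid form had 1498 and 891 reads, a log2 ratio of 0.76. The longer form made up 50.6% of complete coding TPM in replicate 1 and 11.5% in replicate 2. By the second program these shares were 68.9% and 37.8%, with log2 ratios of 2.47 for the longer and 0.60 for the shorter form. The direction was shared by the programs, and the size differed between them. A short transcript with a retained intron, Car12-203, took 45.4% and 57.1% of all Car12 TPM, so the coding shares describe only a part of the gene's level.

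Prlr has a long form of 608 amino acids, which carries the full cytoplasmic tail, and short forms that end in other last exons. The coding part of each alternative last exon on chromosome 15 (mm10, plus strand) is shown in capitals after the last 15 bases they share, because reads for these tails were nearly confined to replicate 1 in the first program:

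Prlr-204, chr15:10341774-10341809: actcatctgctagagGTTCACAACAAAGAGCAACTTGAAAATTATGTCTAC

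Prlr-212, chr15:10345658-10345726: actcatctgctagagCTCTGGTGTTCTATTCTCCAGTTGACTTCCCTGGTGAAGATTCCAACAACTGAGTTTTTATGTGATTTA

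Prlr-205, chr15:10346410-10346499: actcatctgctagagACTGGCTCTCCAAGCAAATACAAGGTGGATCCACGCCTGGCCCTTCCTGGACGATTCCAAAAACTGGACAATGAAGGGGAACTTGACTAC

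The long form had 1212 reads in replicate 1 and 92.8 in replicate 2. The 303 amino acid form (Prlr-212) had 84.9 and 0 reads, the 310 amino acid form (Prlr-205) 76.2 and 1.47, and the 292 amino acid form (Prlr-204) 15.2 and 0. The long form made up 51.8% of complete coding TPM in replicate 1 and 96.9% in replicate 2, and by the second program 51.5% and 81.8%. With 150 reads for the whole gene in replicate 2, the short forms there rest on a handful of assigned reads. The incomplete transcript Prlr-208 took 49.9% of all Prlr TPM in replicate 1 and 5.56% in replicate 2, and by the second program 47.8% and 18.9%. By the first program a transcript with a retained intron, Prlr-201, took 21.5% and 42.1%, and the long form, Prlr-202, 14.6% and 24.6%. The coding shares thus describe only a part of the gene's level.

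For Sulf1 the shift lay between transcripts that encode the same 870 amino acids. Sulf1-203 had 414 reads in replicate 1 and 21.5 in replicate 2, and its share of Sulf1 TPM was 42.4% and 9.93%. Sulf1-201 had 22.7 and 47.8 reads by the first program, with shares of 2.38% and 22.5%. By the second program Sulf1-201 had 113 and 62.4 reads, so the sign of its own ratio differed between the programs while the shift in share did not. In Ace, Lbp, Calml4 and Car14 the main coding transcript took the larger share in replicate 1, for example 97.3% against 89.5% for Ace-201 and 85.1% against 73.8% for Car14-201. In Spint2, the transcript annotated for nonsense-mediated decay, Spint2-203, took 3.17% in replicate 1 and 8.30% in replicate 2. By contrast, the Spint2 coding forms of 195 and 252 amino acids kept nearly the same shares, with 6.94% and 5.70% for the longer one.

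**Figure D4:**
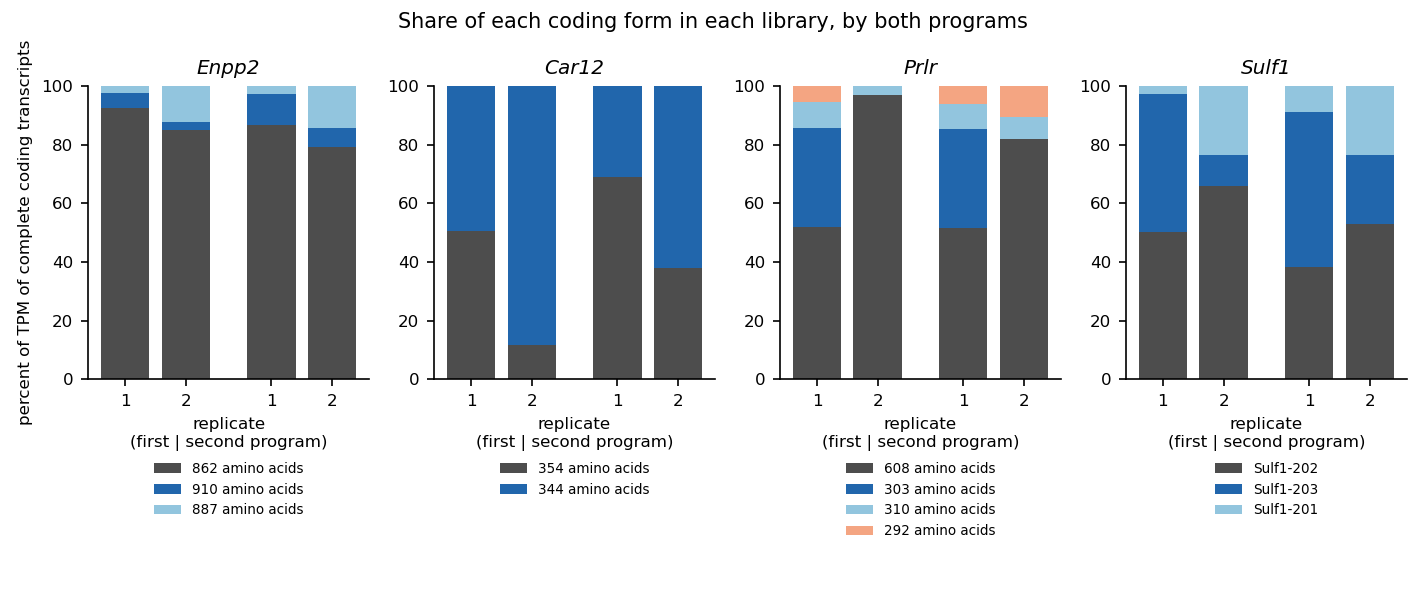
Share of each complete coding form of Enpp2, Car12 and Prlr, and of the 3 Sulf1 transcripts with the same protein, as a percent of their TPM; in each panel the bars are replicates 1 and 2 by the first program and then by the second. In replicate 2 the 887 amino acid form of Enpp2 was larger (12.1% against 2.45%), the 354 amino acid form of Car12 smaller (11.5% against 50.6%) and the 608 amino acid form of Prlr larger (96.9% against 51.8%), in the same direction under both programs.

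Gene position bears on some of the values. Krt8 and Krt18 lie 23.7 kb apart on chromosome 15 with no coding gene between them. Kcne2 and Clic6 lie 188 kb apart on chromosome 16, and their neighbours in between were not alike in ratio: Smim11 had a log2 ratio of 0.23, Rcan1 of 0.09, and Kcne1 had 8 reads and 0. The large ratios of Kcne2 and Clic6 thus did not extend to the expressed genes Smim11 and Rcan1. In 13 of the 36 genes the annotated span overlaps another gene. Kcnj13 (chr1:87386363-87394729, minus strand) lies within Gigyf2, which runs on the other strand at 33.9 and 14.5 TPM. Gigyf2 differed less by reads, with 1777 and 1244. Folr1 overlaps Anapc15 at 21.96 and 21.1 TPM, and Car14 overlaps Aph1a at 28.3 and 46.0 TPM. The labels do not state whether the libraries kept strand, so some reads of these pairs may not be separable. Otx2os1, the antisense neighbour of Otx2, had 36 reads and 1.

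Promoter windows from RefSeq (GRCm38.p6, 250 bases before to 50 after the start) were at hand for 27 of the 36 genes, 34 windows in all. Ttr, Enpp2, Folr1 and Clic6 were among the genes without a window, so the shares below leave them out. The windows were searched on both strands for TAATCC, the core bound by Otx factors, and for the promoter elements TATAAA and CCAAT. The first motif was in 11.8% of the member windows, at Abca4, Ace, Car14 and Otx2, and in 7.06% of 32851 windows of all genes. TATAAA was in 26.5% against 13.6%, and CCAAT in 17.6% against 37.4%. A match describes the letters in the window and says nothing of binding. The 100 bases before the start are shown for the members with TAATCC there, and for Kcnj13 and Cldn2 as examples with TATAAA before the start, with the matched letters in capitals, 5′ to 3′ on the gene's strand:

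Kcnj13, chr1:87394730-87394829, minus strand: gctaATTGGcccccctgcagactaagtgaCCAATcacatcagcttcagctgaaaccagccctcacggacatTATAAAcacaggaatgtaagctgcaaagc

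Cldn2, chrX:139800708-139800807, plus strand: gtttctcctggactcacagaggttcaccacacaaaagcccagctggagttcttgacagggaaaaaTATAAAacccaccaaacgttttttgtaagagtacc

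Ace, chr11:105967848-105967947, plus strand: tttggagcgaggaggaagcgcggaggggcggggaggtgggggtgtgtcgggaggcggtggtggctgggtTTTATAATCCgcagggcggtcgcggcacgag

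Abca4, chr3:122044360-122044459, plus strand: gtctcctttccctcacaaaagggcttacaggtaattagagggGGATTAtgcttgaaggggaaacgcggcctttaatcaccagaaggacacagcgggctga

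Car14, chr3:95904686-95904785, minus strand: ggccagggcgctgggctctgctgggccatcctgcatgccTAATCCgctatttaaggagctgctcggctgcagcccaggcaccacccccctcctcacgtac

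Kcnj13 has TATAAA 29 to 24 bases before the start and CCAAT on both strands farther out, the first capitals being CCAAT read on the other strand. Cldn2 has TATAAA at 35 to 30 bases. In Ace the capitals hold TATAAA on the other strand at 31 to 26 bases, which overlaps TAATCC at 27 to 22. Abca4 has TAATCC on the other strand at 58 to 53 bases, and Car14 has it on the same strand at 61 to 56. Ratios of these genes ran from 2.96 for Car14 to 42.5 for Kcnj13, so genes with these letters had small and large ratios alike.

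Partners of the members were taken from 7 pathway lists, in which the highest gene is the one with the largest mean TPM over both libraries, as in the cell type lists. Among 21 tested genes of ion transport for fluid secretion, 3 were at least 2-fold higher in replicate 1 and none lower, with a median log2 ratio of 0.17. The higher genes were the anion exchanger Slc4a2 (22.8 and 6.11 TPM), the cation channel Trpm3 (24.8 and 6.2 TPM) and the kinase Stk39. Trpm3 differed less by reads, with 4012 and 1518 and a log2 ratio of 1.41. By reads Stk39 passed the fold, with 1024 and 462, while its 12.2 and 6.73 TPM differed by less than 2-fold. Atp1b1, the beta subunit of the sodium pump and the highest gene of the list, had 1123 and 1169 TPM. The lowest ratios were those of Kcna3 at -0.42 and Slc4a7 at -0.37. Among the genes under a 2-fold ratio by reads, Fxyd1, a regulator of the sodium pump, had the largest log2 ratio at 0.82. It had 3288 and 1877 reads, while its 427 and 177 TPM differed by more than 2-fold.

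Of 17 tested transporters of nutrients, hormones and drugs, 4 were higher and none lower, with a median of 0.42. Among the higher genes, Slc16a8, a lactate transporter, had 208 reads and 2, while the sulfate transporter Slc13a4 and the copper transporter Slc31a1 had log2 ratios of 1.47 and 1.33. Rbp4, the highest of the list with 39.4 and 45.1 TPM, had a log2 ratio of -0.23, and Slc15a2 was the lowest at -0.26. Of 12 tested secreted factors, 2 were higher: Igf2 with 15.9 and 4.94 TPM, and its binding protein Igfbp2 with 120 and 43.0 TPM. The highest of this list, the protease inhibitor Cst3, had 13084 and 10657 TPM, and Wnt5a was the lowest at a log2 ratio of -0.24. The median was 0.30.

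Of 11 tested junction partners, 3 were higher and none lower, with a median of 0.22. Cldn3 had 159 and 44 reads, Tjp3, a zonula occludens scaffold, had 193 and 55 reads, and the junction protein Cgn had 243 and 87 reads. Cldn11, the highest, had 100.5 and 88.2 TPM, and Cdh2 had the lowest log2 ratio at -0.25. No gene passed the fold in either direction among 7 tested roof plate factors (median -0.29), 5 genes of keratins and simple epithelium (median -0.13) and 10 partners of Klotho, prolactin and folate signalling (median 0.01). In these lists Bmp4 at 0.78, Spint1 at 0.44 and Cish at 0.78 had the largest log2 ratios, and Otx1 at -0.53, Jup at -0.54 and Fgfr3 at -0.48 the smallest. The highest by mean TPM over both libraries were Rspo2 with 5.95 and 7.54, Jup with 28.1 and 46.9, and Fgfr3 with 34.6 and 47.8. Fgf23 and Gh, hormones made elsewhere in the body, had no reads in either library in the first program's gene tables.

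Markers of neighbouring cell types also differed between the libraries in places. Of 10 tested ependymal markers, 3 were at least 2-fold higher in replicate 1 (Mia, Ak7 and Dynlrb2) and none lower, and the summed level of all 12 was 218 and 130 TPM, with Rarres2 the highest at 56.0 and 44.5 TPM. Of 11 tested markers of meningeal fibroblasts, 5 were at least 2-fold lower in replicate 1 (Aldh1a2, Slc22a6, Slc6a13, Ptgds and Fmod) and none higher, with sums of 2034 and 4697 TPM over 12 markers. Ptgds, the highest of that list, had 1907 and 4555 TPM and so made up most of both sums. The tested markers under the fold ran from a log2 ratio of -0.70 for Col1a1 to 0.11 for Igfbp6. The ependymal and meningeal lists thus lay on opposite sides of equality, with medians of 0.68 and -0.70, and none of their markers was at 0. Their part in the ratios of the plexus genes was not tested.

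Retinal pigment epithelium shares several genes with the plexus, and 2 of its 5 tested markers were higher in replicate 1, with sums of 93.6 and 32.4 TPM over 11 markers. The retinol dehydrogenase Rdh5, the highest, had 66.5 and 7.96 TPM and made up most of the sum in replicate 1. The transcription factor Mitf had 3.43 and 1.43 TPM. Rpe65, the defining enzyme of that tissue, had 53 and 47 reads. No list member passed the fold among 9 tested endothelial, 8 mural, 3 macrophage, 3 red blood cell, 10 oligodendrocyte, 10 astrocyte, 10 glutamatergic neuron and 8 microglial markers. Their highest genes were Cldn5, Vtn, Pf4, Hba-a2, Mbp, Aldoc, Camk2a and C1qb. Of 8 tested markers of thalamus and habenula, 1 was higher, Chrnb4 with 111 and 31 reads, and Tcf7l2, the highest, had 95.9 and 58.6 TPM. No pineal or subcommissural marker reached a mean count of 50. Tph1, the highest, had 0.27 and 0.51 TPM, and Asmt and Gngt1 had no reads in either library, Crx none in replicate 1. Lmx1b and the endothelial Esm1 also had no reads in replicate 1, with 5 and 9 in replicate 2. The part of these cell types in the ratios of the plexus genes was not tested.

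**Figure D5:**
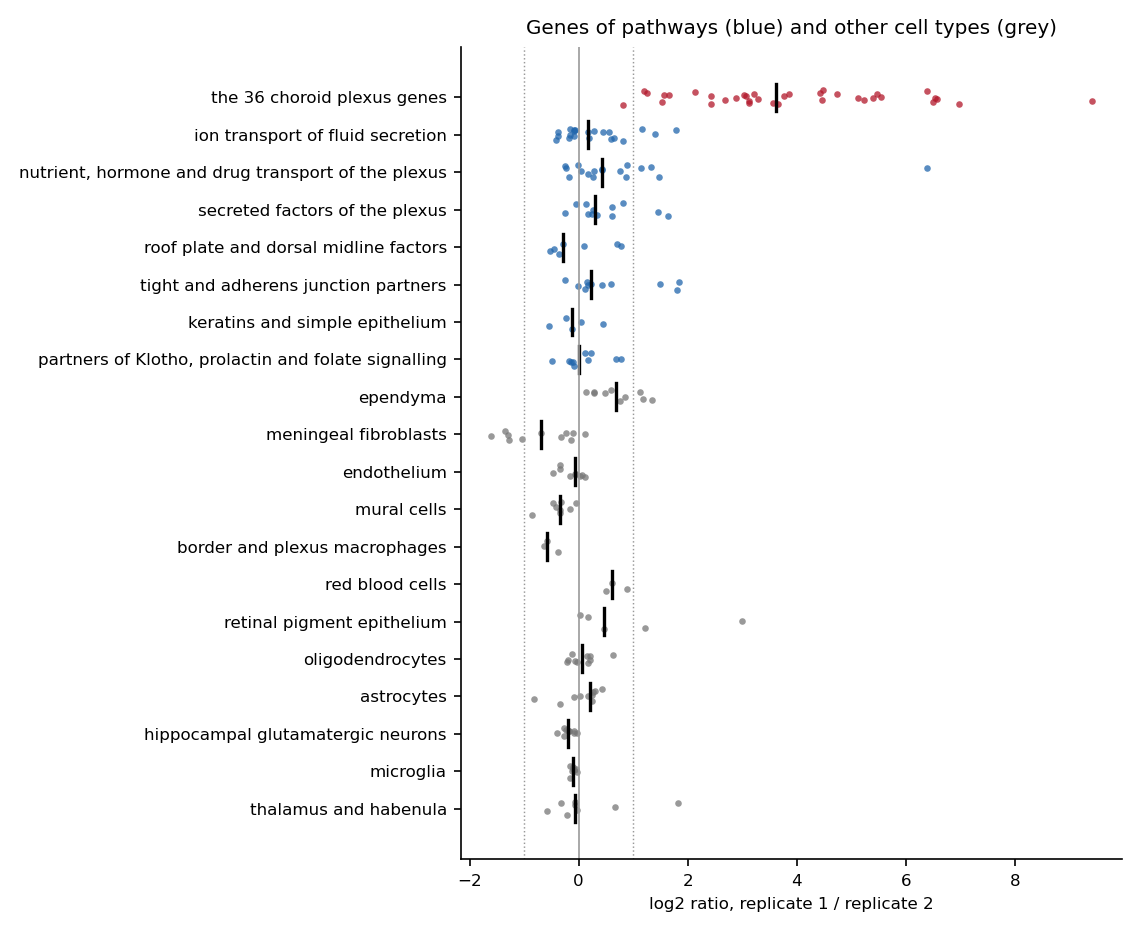
Log2 ratio of replicate 1 to replicate 2 for the 36 genes (red, Rrh at its bound), for genes of 7 pathway lists (blue) and for markers of other cell types (grey), each with a mean count of at least 50 outside the red row; black bars are medians and dotted lines a log2 ratio of 1 in either direction. The median of the red row is 3.62, the grey row farthest to the right is ependyma at 0.68 and the one farthest to the left meningeal fibroblasts at -0.70.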

How the data were processed

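The 2 libraries of 1 group were analysed. Per the file headers, the deposited tables of the first program give the expected count of reads and the TPM for each gene and transcript in the column layout of RSEM, and those of the second program give the estimated count and TPM for each transcript in the layout of kallisto. Program names were not given in the sources used here. The deposited text names mm10 and annotation M21.

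Expected counts were rounded to whole numbers. In the gene tables, 26345 rows each that name no gene, with 9 and 6 reads, stayed out of library sizes. Library sizes were scaled by TMM in edgeR 4.0.16 (R 4.3.3), with factors of 1.005 and 0.995. Python 3.11.15 with numpy 2.4.6, pandas 2.3.3, scipy 1.17.1 and matplotlib 3.10.9 did the rest. Log2 ratios used a prior count of 0.5. Intervals are exact conditional (Clopper-Pearson) 95% intervals, which cover counting error only. They leave out the spread between samples and preparations and the uncertainty of read assignment. PCR copies of a molecule could not be told from separate molecules, so the counting error itself may be understated. A gene counted as past the fold at an absolute log2 ratio of 1, and tested genes are those with a mean count of at least 50. With 1 library on each side, no p-value was computed, and the replicate labels may stand for technical or biological spread. A count of 0 allows 3 reads. The ratio, the fold call and the interval were tested on simulated gene counts with counting error only and equal library sizes. The other steps were not part of that test.

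The members and lists were chosen with earlier results of these data known. Named genes are all members, the largest, smallest and most abundant genes of each pathway list, the most abundant marker of each cell list and those at 0, and the 10 other genes with the largest ratio. A gene that this rule takes is not reported here. Neighbouring and overlapping genes, further markers given as values, the transcripts and the printed sequences were chosen after values were seen. Alternatives were other scalings, TPM, the second program, other prior counts, count minimums and folds, another reference than Ttr, and leaving out a library.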

Additional observations from a re-analysis of the deposited data

How the results depend on the processing

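All 36 genes stayed higher in replicate 1 under the 5 alternatives of scaling, unit, program and prior count, and their median log2 ratio ranged from 3.54 to 3.70. A 2-fold ratio was kept by 35 genes under each of these. With a mean count of at least 50 or 200 it was 34 and 28 genes, and a log2 ratio of 2 left 30. The number of genes no more than 1 below the Ttr log2 ratio was 7, with Ttr itself included and Rrh counted by its fitted value. It was 30 with the 5 most-read members other than Ttr as reference. In the second program it was 4, as Aqp1, Tmem72 and Rrh moved out with 3, 28 and 13 reads in replicate 2. The background of 339 genes past the fold, of 14080 tested, became 912 at a mean count of at least 10 and 152 at 200. The number of genes tested changes with the minimum, so these counts are not shares. The median TPM of the genes, 10.3 over the mean of both libraries, ranged from 1.515 to 16.3 when either library was left out. A prior count of 5 lowered the log2 ratio of Kcne2 to 7.42 and of Aqp1 to 4.54. In TPM the log2 ratio of Tmem72 was 5.34 and that of Abca4 3.90. No paired analysis was possible because there is only 1 group. Low counts limit the genes near the Ttr ratio: 14 genes had 30 or fewer reads in replicate 2.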

Other observations

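Other genes that are not on the list also had large ratios. Of 21 genes with a log2 ratio of 5 or more at a mean count of at least 50, 11 were members and 10 were not. The 10 others include Mfrp, a membrane protein best known from the retinal pigment epithelium, with 394 reads in replicate 1 and 5 in replicate 2, and the lactate transporter Slc16a8 with 208 and 2. Prr32 had 315 and 4 reads, the defensin gene Defb11 had 145 and 2, and Wdr72 had 106 and 1. In the second program Slc16a8 had 296 and 3 reads, with a log2 ratio of 6.39 in both programs. Mfrp had 630 and 22 reads there, and its log2 ratio fell from 6.17 to 4.80, under the cut of 5.

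Among the remaining genes of the 10, Gm45837 and Gm13304 had 149 and 121 reads in replicate 1 and none in replicate 2, and 167 and 116 against none in the second program. Gm17167 had 329 and 4 reads, and 963 and 42 in the second program. The pseudogenes Gm10359 and Gm28438 had 484 and 217 reads in replicate 1 and none in replicate 2. In the second program Gm10359 had 1430 and 4284 reads, the opposite direction, and Gm28438 had none in either library.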
